A study of Mus musculus with 4 samples.

Results

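Genes of autophagy and mitophagy were examined in lenses of Celf1 cKO and Control mice at postnatal day 6, with RNA of 1 lens on each of 4 Illumina MouseWG-6 v2.0 BeadChips (n = 2 per genotype, replicates A and B). A list of 44 genes was read from the arrays by gene symbol. Of these, 39 had a probe under their own symbol, with 77 probes in all, and 31 were tested because at least 1 of their probes exceeded background (detection p under 0.05) on at least 2 arrays. The series held 11518 tested genes in total. The Celf1 cKO mice carried a Celf1 lacZKI germline knockout allele, a Celf1 flox allele with an exon between loxP sites, and Pax6GFPCre, a transgene that drives Cre in the lens and pancreatic lineages from the lens placode stage. The Control mice were Celf1 lacZKI/+, so both genotypes carried the knock-in allele and the Control lenses had a single intact copy of Celf1. The mice descended from both C57BL/6 and FVB strains, and their sex is not given in the labels.

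Autophagy encloses cytoplasm or whole organelles in a double membrane, the autophagosome, and delivers them to lysosomes for breakdown. The ULK1 kinase complex starts the process, a class III PI3-kinase complex marks the growing membrane (the phagophore) with a phosphorylated lipid, ATG9 and ATG2 proteins supply membrane, and conjugation reactions attach small ubiquitin-like proteins of the ATG8 family (LC3 and GABARAP) to it. Cargo receptors such as p62, the product of Sqstm1, bind both the cargo and ATG8 proteins, and mitophagy is the form that removes mitochondria. Fiber cells of the lens lose their organelles as they mature. BNIP3L, a mitophagy receptor, takes part in this loss, whereas fiber cells can clear organelles without ATG5.

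The autophagy genes did not move as a block. Sqstm1 was elevated 4.59-fold in cKO lenses, the largest change among the members, and 6 further members (Atg5, Tax1bp1, Uvrag, Ulk1, Gabarap and Atg2b) were elevated by 1.64-fold to 2.45-fold. Atg9a was reduced, with a 1.58-fold higher signal in Control lenses. The other 23 tested members, among them Map1lc3b, Becn1 and both tested mitophagy genes, were not called. To be called, a gene needed a limma adjusted p under 0.05, a log2 difference of more than 0.58 in either direction, and a log2 signal that averaged over 4.6. The 8 called members were 25.8% of those tested, where 11.7% of all genes were called. In the single directions, 6.03% of all genes were called elevated and 5.63% reduced. The median log2 fold change was 0.20 over the 31 tested members and 0.01 over all genes. Without the detection filter, over all 39 members with a probe, these medians were 0.01 and -0.01, and with the filter but without Control B the members' median was 0.11. Atg4b and Atg4c passed the detection filter through the cKO arrays alone, so these figures describe the members that passed and not the whole list.

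The probes behind these values are 50 bases long. The first 30 bases are given for Sqstm1 and Gabarap, whose values rest on 1 retained probe each, for Gabarapl1, whose value lay on the other side of 0 from that of Gabarap, and for both probes of Atg5 and of Ulk1. Capitals mark bases shared by the probes of a gene.
Sqstm1: ggcccagtgtcttggcattcttgtagaatc
Gabarap: gcctacagtgatgaaagcgtctatggtctg
Gabarapl1: cttgggtctcacacgcactgcaaatgctaa
Atg5, first probe: ggaaagtttgctgcactctctcgatggctg
Atg5, second probe: agcttgctgtccacattgaatgtcaaccca
Ulk1, first probe: CTCCCTGACCTGCCAGTCCTTTGTCACGGC
Ulk1, second probe: gcCTCCCTGACCTGCCAGTCCTTTGTCACG
The Ulk1 probes overlap in 48 of 50 bases and are nearly the same measurement, although the files place them on chromosome 5 at 111239031 to 111239080 and at 111213962 to 111214011. The same holds for the retained probes of Nbr1, which overlap in 49 bases, and for a pair of the 3 probes of Atg2a, which overlap in 46. The Atg5 probes do not overlap and lie side by side on chromosome 10 at 44052544 to 44052593 and 44052605 to 44052654. The Sqstm1 probe lies on chromosome 11 at 50014168 to 50014217. The files state no genome build and no exon for these positions, so they cannot be combined with the GRCm38.p6 positions of the promoters below. Gabarap and Gabarapl1 have similar coding sequences, but their probes share no run longer than 5 bases and match at no more than 18 of 50 positions in any ungapped alignment.

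Promoters were read because 7 members were elevated together. The RefSeq table of GRCm38.p6 held a promoter for 25 of the 31 tested members and for all 8 called ones, and the 250 bases before each annotated start were searched on both strands. The motifs were the E-box CACGTG, bound by the TFEB and MYC families among others, the cyclic AMP response element TGACGTCA, the core of the antioxidant response element TGACNNNGC, bound by NRF2, and TGATGNAA, the element bound by ATF4 with C/EBP proteins. The stretches of 3 promoters are shown in the direction of transcription, with any match in capitals: that of Sqstm1, the gene of largest change, that of Atg5, which holds an E-box, and the second of 2 Tax1bp1 promoters, which holds an antioxidant response core.
Sqstm1, chr11:50210821-50211070, minus strand: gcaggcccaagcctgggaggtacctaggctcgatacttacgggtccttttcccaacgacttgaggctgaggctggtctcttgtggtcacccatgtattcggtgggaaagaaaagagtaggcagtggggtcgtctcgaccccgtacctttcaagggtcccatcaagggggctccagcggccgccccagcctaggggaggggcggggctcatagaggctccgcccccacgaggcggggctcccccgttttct
Atg5, chr10:44268089-44268338, plus strand: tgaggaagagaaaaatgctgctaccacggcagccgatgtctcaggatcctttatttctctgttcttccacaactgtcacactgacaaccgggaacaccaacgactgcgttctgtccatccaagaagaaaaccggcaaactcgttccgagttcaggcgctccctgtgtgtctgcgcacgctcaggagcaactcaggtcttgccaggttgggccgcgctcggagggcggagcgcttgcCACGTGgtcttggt
Tax1bp1, chr6:52713915-52714164, plus strand: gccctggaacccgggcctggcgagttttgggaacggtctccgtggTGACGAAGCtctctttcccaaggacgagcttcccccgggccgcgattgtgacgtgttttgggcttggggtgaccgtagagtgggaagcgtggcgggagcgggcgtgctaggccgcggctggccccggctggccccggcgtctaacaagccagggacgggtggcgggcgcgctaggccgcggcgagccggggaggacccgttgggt
The E-box of Atg5 lay 14 to 9 bases before the start, and this was the single E-box among the 8 promoters of the 7 elevated members. Over all 32851 promoters of the table, 6.02% held an E-box in the same window. The antioxidant response core was found in 1 of the 8 promoters and in 10.2% of all promoters. TGACGTCA and TGATGNAA were in 0 of the 8, against 1.55% and 3.45% of all promoters. None of the 4 motifs was in the window of Sqstm1 that is shown, and none was in that of Atg9a, the reduced member. These matches describe letters in a window and were not tested.

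On all arrays the lens identity of the samples was clear, since 6 of 6 lens fiber markers were tested while 0 of 4 retina and 0 of 4 skeletal muscle markers exceeded background. Celf1 itself was reduced in cKO lenses (log2 fold change -1.43 ± 0.19, SE, adjusted p = 0.0098). The cKO arrays were brighter, with 16261 and 16925 probes detected against 14542 and 14180 in Control. Xist had a log2 signal of 7.42 and 7.27 in cKO A and B and was not detected in Control lenses. The Y-linked Ddx3y had 6.81 and 4.82 in cKO A and B, detected on both, and 8.99 and 8.82 in Control lenses. Both transcripts separated the genotypes, so that genotype, sex-linked transcripts and array brightness cannot be told apart. The summed signal of the 3 tested lens epithelium markers was 173 to 295 in cKO lenses and 395 to 418 in Control lenses, with Foxe3 reduced and Pax6 below the filter. All 6 lens fiber markers had values below 0, from -0.76 for Bfsp2, which was called reduced, to -0.06, and their summed signal was 130593 to 134376 in cKO lenses and 149129 to 154417 in Control lenses. That of the 4 vessel markers was 180 to 191 against 202 to 209, with none of them called and values on both sides of 0, from -0.59 for Kdr to 0.58 for Cdh5. Of 5 pigment cell markers only Pmel exceeded background, with a signal of 23.9 to 27.2 in cKO and 27.3 to 41.6 in Control lenses (-0.40, not called). The part of these markers in the values below was not tested, and fewer cells of a type cannot be told apart from less RNA per cell. All marker values are quantile normalized and were not read under other scalings, so their signs may depend on the scaling. The bright fiber marker Mip had the same log2 signal, 14.75, on cKO A and both Control arrays. Of 5 macrophage markers, C1qb was called elevated but was detected on the cKO arrays alone, Csf1r gave -0.11 and was not called, and the other 3 did not exceed background. Of 5 red blood cell markers, 3 were tested, with Slc4a1 called reduced (-1.03 ± 0.15, adjusted p = 0.011), and their summed signal was 350 to 755 in cKO lenses and 523 to 630 in Control lenses.

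**Figure D1:**
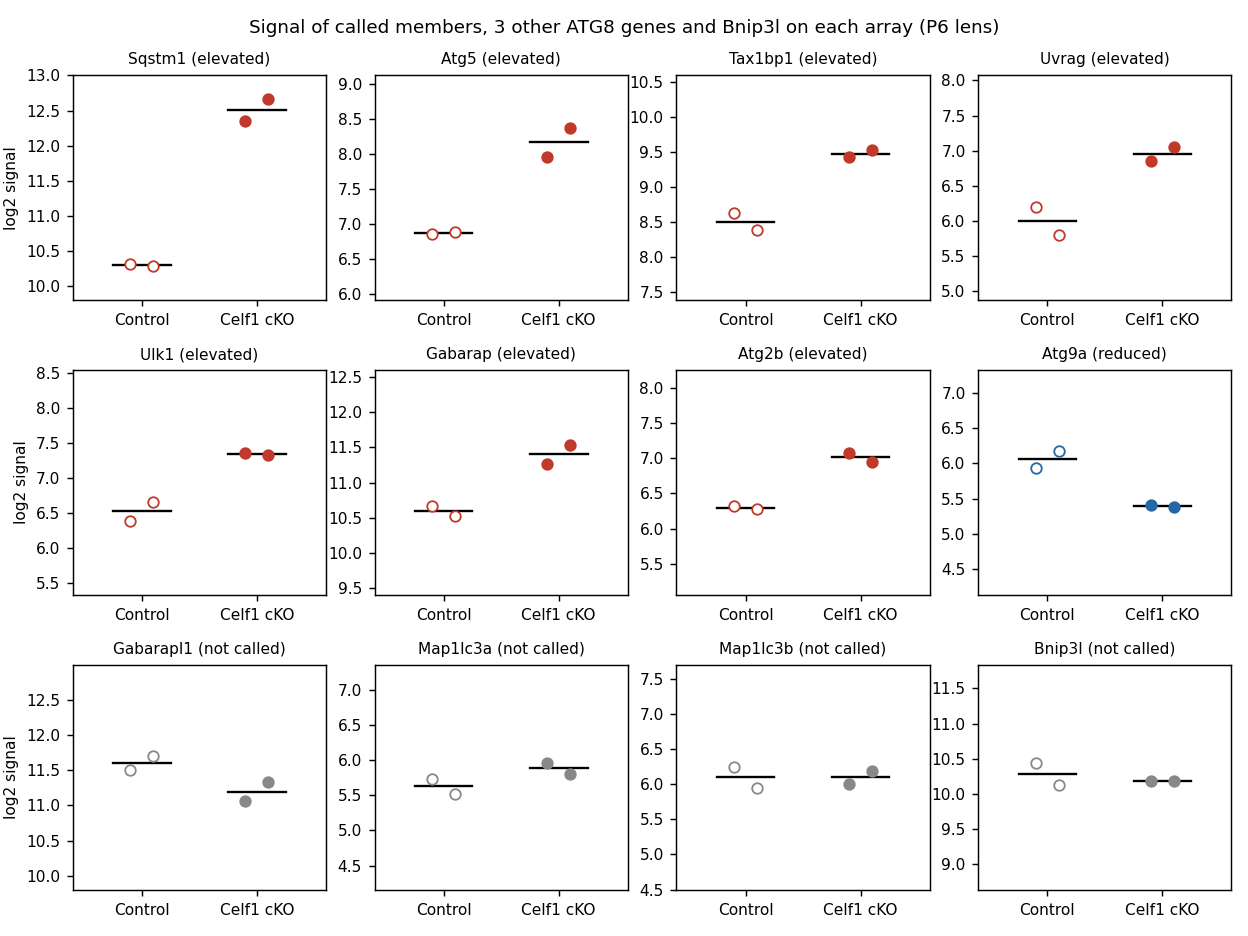
Log2 signal (vertical axes, each panel spanning the same range around the gene's own level) of the 8 called members, 3 further ATG8 genes and Bnip3l in Control (open circles) and Celf1 cKO lenses (filled circles), 1 circle per array, with a line at the group mean. Both cKO values lay above both Control values for the 7 elevated members and below them for Atg9a, whereas the groups overlapped for Map1lc3b and Bnip3l.

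In the ULK1 initiation complex, 2 genes were tested. Ulk1, the kinase that starts autophagosome formation, had a log2 signal of 7.36 and 7.33 in cKO A and B and of 6.39 and 6.66 in Control A and B. Both cKO values exceeded both Control values, and the log2 difference was 0.82 ± 0.15 (SE, adjusted p = 0.021), with 0.95 and 0.70 from the overlapping probes. Ulk2, the related kinase, had 5.74 and 5.76 in cKO and 5.75 and 5.71 in Control lenses (log2 fold change 0.02, 95% confidence interval -0.29 to 0.34). Its probes differed in sign, at 0.14 ± 0.16 and -0.09 ± 0.16, and neither was called. Rb1cc1, the scaffold FIP200 of the complex, had 2 probes that exceeded background on 0 arrays. Atg13 and Atg101, the other subunits, had no probe under these symbols.

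In the class III PI3-kinase complex, Uvrag was elevated. It encodes a Beclin 1 partner that acts in autophagosome maturation and endosomal traffic. Its log2 signal was 6.85 and 7.06 in cKO lenses and 6.20 and 5.79 in Control lenses, so the spread was widest between the Control lenses and the groups did not overlap. On the log2 scale it was higher by 0.96 ± 0.18 (SE, adjusted p = 0.023). Becn1, the core subunit Beclin 1, showed 6.07 and 6.24 against 6.43 and 6.83 and was not called (log2 fold change -0.48 ± 0.18, adjusted p = 0.118). Its probes gave different answers. The brighter one fell by a log2 value of 0.79, from 8.10 and 8.43 in Control to 7.49 and 7.46 in cKO lenses, and would be called on its own (adjusted p = 0.029), whereas the dimmer one gave -0.16 (adjusted p = 0.65). The sign of the gene depended on the scaling, and without scaling Becn1 came to 0.12 and with equal medians over all probes to 0.08. Before scaling, the intensity of the brighter probe was 259.6 and 273.6 in cKO lenses and 260.8 and 252.4 in Control lenses and overlapped between the groups. The catalytic subunit Pik3c3 (0.22) and the regulator Ambra1 (0.49, adjusted p = 0.072) were not called. Pik3r4, the regulatory subunit, had 4 probes detected on 0 arrays, and Atg14 had no probe.

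Membrane supply held a called gene in each direction. Atg9a, the transmembrane protein that seeds the phagophore, had a log2 signal of 5.41 and 5.38 in cKO lenses and of 5.94 and 6.18 in Control lenses. The change came to -0.66 ± 0.15 on the log2 scale (SE, adjusted p = 0.035). Before scaling, the intensity of its probe was 78.7 and 81.5 in cKO lenses and 84.2 and 76.7 in Control lenses and overlapped between the groups, so the lower value in cKO lenses appeared on the scaled signal only. Without any scaling between arrays the value was -0.06 and not called. Atg2b, a lipid transfer protein that feeds the growing membrane, rose from 6.32 and 6.27 to 7.08 and 6.95 (log2 fold change 0.72 ± 0.14, adjusted p = 0.024). Of its probes, 1 was called (0.89 ± 0.17) and the other was not (0.54 ± 0.15, adjusted p = 0.059). With the brighter probe alone, without background correction (0.54) or with a background offset of 50 (0.52), Atg2b was not called. Nor was Atg9a under the last 2 of these (-0.43 and -0.41), which left 6 members called, all elevated. Atg2a, the paralog of Atg2b, had values above 0 with all 3 probes, at 0.34 to 0.64, and was not called as a gene (0.50, adjusted p = 0.066). The phosphoinositide effectors Wipi1 (-0.23) and Wipi2 (-0.17) were not called, and Vmp1 had no probe under its own symbol.

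In the conjugation machinery, Atg5 alone was called in the reported fit. ATG5 is joined to ATG12, and the pair, with ATG16L1, directs the attachment of ATG8 proteins to lipid. The log2 signal of Atg5 was 7.96 and 8.37 in cKO lenses and 6.86 and 6.89 in Control lenses. The groups lay far apart, and the log2 difference was 1.29 ± 0.17 (SE, adjusted p = 0.0097). Each of its probes was called, at 1.55 ± 0.19 and 1.03 ± 0.23, and so was a further probe that the files list under the older name Apg5l (1.20 ± 0.16, adjusted p = 0.0074), which did not enter the gene's value. Its partners were not called: Atg12 gave 0.30, Atg16l1 0.00 and Atg16l2 -0.15. Nor were the E2-like enzymes Atg3 (-0.04) and Atg10 (-0.35, adjusted p = 0.132). Atg3 was the least certain of these, since its values of 6.34 and 7.07 in cKO and 7.12 and 6.38 in Control lenses spread widely within both groups (95% confidence interval -0.78 to 0.70). Atg12 (1.16), Atg16l1 (0.79) and Atg3 (0.71) were, however, called elevated without scaling. Of these, Atg12 (1.12) and Atg16l1 (0.75) were also called with equal medians over all probes. Atg16l2 and Atg10 came to 0.29 and 0.28 without scaling and were not called. With 1 lens left out, Atg12 lay between 0.04 and 0.57 and Atg16l2 between -0.37 and 0.07. The E1-like enzyme Atg7 had 1 probe, detected on 0 arrays.

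None of the ATG4 proteases, which trim ATG8 proteins before conjugation and release them from membranes afterwards, was called. Atg4b and Atg4c were detected on both cKO arrays and on neither Control array. For Atg4c the groups overlapped, with 4.61 and 5.09 in cKO and 4.66 and 4.63 in Control lenses (adjusted p = 0.49), and for Atg4b no bound above 1 was obtained (adjusted p = 0.30). Atg4d, detected on both cKO arrays and on 1 Control array, gave 0.52 ± 0.19 (adjusted p = 0.111). A probe of Atg4d passed the filter through the cKO arrays alone. Its value depended on the scaling, at 0.03 with equal medians over the probes detected on all arrays and at 0.79, called elevated, without scaling. Atg4a did not exceed background.

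Within the ATG8 family, Gabarap was called and its relatives were not. Gabarap had a log2 signal of 11.27 and 11.54 in cKO lenses and of 10.67 and 10.52 in Control lenses, with no overlap (log2 fold change 0.81 ± 0.16, SE, adjusted p = 0.024). Gabarapl1, a close paralog with a bright probe as well, had 11.06 and 11.33 against 11.51 and 11.70, and its log2 fold change was -0.41 (95% confidence interval -0.79 to -0.03, adjusted p = 0.135). For Gabarapl1 the sign depended on the scaling, and without scaling it was 0.40. Map1lc3b, which encodes the LC3B protein commonly followed as a marker of autophagosomes, gave 6.01 and 6.19 in cKO and 6.24 and 5.95 in Control lenses. Its groups overlapped and its log2 fold change was 0.00 (95% confidence interval -0.39 to 0.38), an interval that lies inside the fold threshold of 0.58 in both directions. This too depended on the scaling, since Map1lc3b was called elevated without scaling (0.68, adjusted p = 0.015) and with equal medians over all probes (0.65, adjusted p = 0.023). Map1lc3a, encoding LC3A, showed 5.97 and 5.80 against 5.73 and 5.52 (0.26 ± 0.15, adjusted p = 0.29), and its probes gave 0.53 ± 0.18 and -0.01 ± 0.16. Both probes of Gabarapl2 were below background on all arrays.

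Cargo receptors held the largest difference. Sqstm1 had a log2 signal of 12.35 and 12.66 in cKO lenses and of 10.32 and 10.28 in Control lenses. In the unnormalized table its intensity was 6393.9 and 8507.7 in cKO lenses and 1100.6 and 853.2 in Control lenses, so the groups were far apart before any scaling. The log2 fold change was 2.20 ± 0.16 (SE, 95% confidence interval 1.83 to 2.57, adjusted p = 0.0021). Tax1bp1, a ubiquitin-binding receptor related to the NDP52 protein, had 9.43 and 9.52 against 8.63 and 8.38 (0.97 ± 0.15, adjusted p = 0.014). Nbr1, which cooperates with p62 on ubiquitinated cargo, lay the other way at 5.88 and 5.79 against 6.33 and 6.38. It missed the call on both criteria, with -0.52 ± 0.14 and an adjusted p of 0.052. Its sign also turned with the scaling, to 0.16 without scaling and 0.12 with equal medians over all probes. Optn, encoding optineurin, was not called (8.31 and 8.40 against 8.10 and 8.25, log2 fold change 0.18), with probes at -0.06 ± 0.17 and 0.42 ± 0.16. Calcoco1 gave 0.06 and was not called. Wdfy3, the large adaptor ALFY, had 4 probes, none of which passed the filter.

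Of the mitophagy genes, 2 of 5 could be tested and 0 were called. Bnip3l, the receptor that takes part in the loss of mitochondria from fiber cells, had a log2 signal of 10.19 and 10.18 in cKO lenses and of 10.44 and 10.13 in Control lenses. The cKO values lay inside the Control range, and the log2 fold change was -0.09 ± 0.16 (95% confidence interval -0.47 to 0.28, adjusted p = 0.71). Fundc1, a receptor of the outer mitochondrial membrane, showed 7.73 and 7.66 against 7.42 and 7.38. Its groups did not overlap, but the difference of 0.29 ± 0.13 was not called (adjusted p = 0.189), and its probes differed in size, at 0.52 ± 0.16 and 0.06 ± 0.16. Both depended on the scaling. They were called elevated without scaling, Bnip3l at 0.78 (adjusted p = 0.0069) and Fundc1 at 1.12 (adjusted p = 0.00022), and with equal medians over all probes, at 0.74 and 1.08. Bnip3 and Park2, the Parkin gene, had 1 and 4 probes below background on every array, and Pink1 had no probe. At an unadjusted p under 0.05, 0 of the 2 tested mitophagy genes and 15 of the 31 tested members would pass, and so would 31.9% of all genes.

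**Figure D2:**
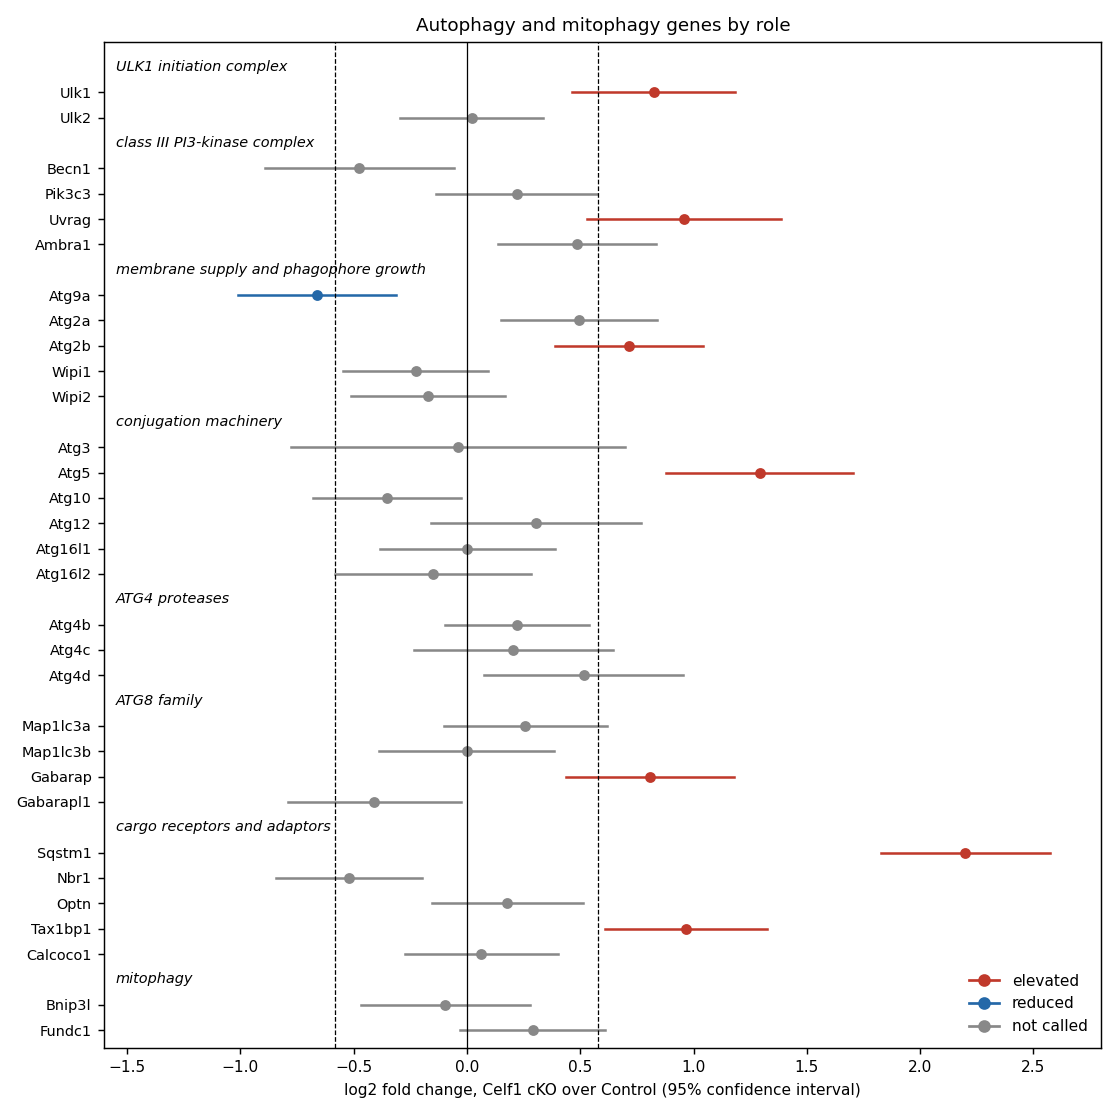
Log2 fold change of Celf1 cKO over Control lenses (horizontal axis) with its 95% confidence interval for the 31 tested members, grouped by role. Dashed lines mark the threshold of 0.58 in both directions. Red genes were called elevated, the blue gene was called reduced and grey genes were not called. Sqstm1 stands apart at 2.20, and most roles hold values on both sides of 0.

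Values of single arrays did not overlap between genotypes for 23 of the 31 tested members, 16 of them higher in cKO lenses. Atg4b, among the 16, passed the detection filter through the cKO arrays alone. Over all genes, 62.3% did not overlap, and 3760 of these 7180 genes were higher in cKO lenses. With 2 lenses per genotype, an exact permutation test of a single gene cannot give a two-sided p below 0.333, and the calls rest on the spread that limma shares over genes. Fewer genes were called throughout the series when cKO A (595), cKO B (163) or Control B (182) was left out, against 1344 with all 4 lenses. The call remained for Sqstm1 whichever lens was left out (adjusted p from 0.0018 to 0.033). Without cKO B or without Control B it was lost for each of the other 7 (adjusted p for Atg5 up to 0.059), without cKO A it remained for Atg5, Gabarap and Tax1bp1 as well as Sqstm1, and without Control A it remained for all 8. All 8 kept their direction in each of these fits, with log2 fold changes of 1.07 to 1.49 for Atg5, 0.84 to 1.09 for Tax1bp1, 0.70 to 0.98 for Ulk1 and -0.80 to -0.58 for Atg9a.

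Among the 44 listed genes, 14 had several retained probes. The sign differed between probes for Ulk2, Map1lc3a and Optn, and the call differed for Becn1 and Atg2b. RefSeq assigned 13 further probes with other names in the files to members, of which 6 passed the filter and 1, that of Atg5, was called. They reached 3 members that had no probe under their own symbol. Atg101, named 9430023L20Rik in the files, gave a log2 fold change of 0.35 (adjusted p = 0.165). Atg13, named D2Ertd391e, gave -0.25 (adjusted p = 0.32). Vmp1, a protein needed for autophagosome formation that the files name Tmem49, gave 0.60 and 0.47 with its probes, neither of them called (adjusted p = 0.055 and 0.144). A further Ambra1 probe gave 0.66 (adjusted p = 0.050, just above the threshold).

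**Figure D3:**
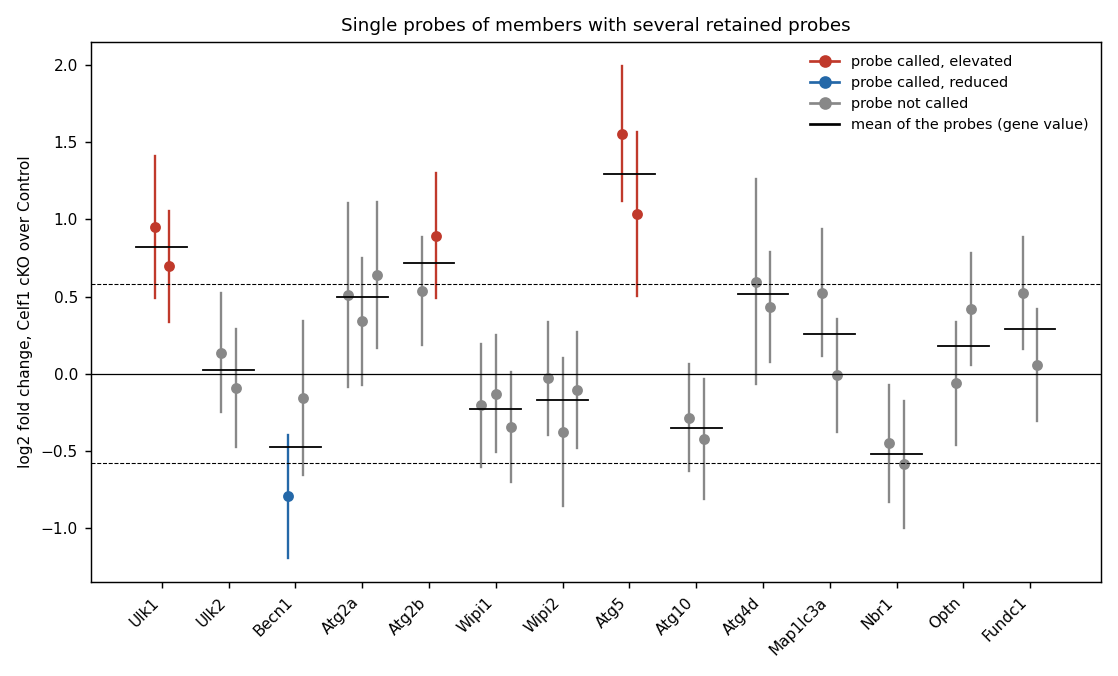
Log2 fold change of Celf1 cKO over Control lenses (vertical axis, bars for 95% confidence intervals) of each retained probe of the 14 members with several retained probes. Black lines mark the mean of a gene's probes, which is the value of the gene, and dashed lines the threshold of 0.58. The probes of Atg5 and Ulk1 are all called, while Becn1 and Atg2b have 1 called probe each.

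Genes that surround the core machinery were read from 4 lists with 66 genes, of which 63 were tested. Of these, 6 were elevated and 4 reduced (15.9%, beside 11.7% of all genes). Epg5, 1 of the 6, passed the detection filter through the cKO arrays alone, as did Tecpr1 (0.37) and Opa1 (0.19), which were not called. The count and the median thus describe the genes that passed. The median log2 fold change over the 63 genes was 0.03. Nutrient sensing and transcriptional control held 5 of the 10, out of 18 tested. Ddit4, an inhibitor of mTORC1 signalling induced by stress, was at 9.00 and 9.07 in cKO lenses and at 7.38 and 7.07 in Control lenses (log2 fold change 1.81 ± 0.16, adjusted p = 0.0032). Trp53inp1, which binds ATG8 proteins, was elevated by 1.09 ± 0.25 and Rheb, the GTPase that activates mTORC1, by 0.61 ± 0.15. The value of Trp53inp1 was 0.67 without cKO B and 1.96 with its brightest probe. Its call was lost without cKO B, Control A or Control B, and that of Rheb without cKO A, cKO B or Control B, and neither was called on the authors' rank-invariant values plus 16. Rheb was not called with each probe on its own either, and its value was 0.09 without a detection filter. In the other direction, Sesn1, a Sestrin that inhibits mTORC1, had 8.30 and 7.87 against 9.57 and 9.83 (-1.62 ± 0.19, adjusted p = 0.0064), and Tsc2, a brake on Rheb, gave -1.15 ± 0.26. Without scaling between arrays Sesn1 was still called, at -0.76, whereas Tsc2 came to -0.32 and was not called (adjusted p = 0.227), nor was it with equal medians over all probes (-0.36, adjusted p = 0.177). Ddit4 and Sesn1, both inhibitors of mTORC1, were thus called in opposite directions under these scalings too.

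Accessory factors of autophagosome formation showed 2 called genes of 11, both reduced. Rubcn, encoding Rubicon, an inhibitor of the complex that holds Uvrag, had 7.06 and 7.47 in cKO lenses and 8.44 and 8.28 in Control lenses (-1.10 ± 0.18, adjusted p = 0.015). Bcl2, whose product binds Beclin 1, gave -0.92 ± 0.14 (adjusted p = 0.014). Both reductions depended on the scaling. Without scaling Rubcn came to -0.26 and Bcl2 to -0.33, and with equal medians over all probes to -0.30 and -0.36, and neither was called. Neither was called without a detection filter, nor was Bcl2 with a background offset of 50 (-0.56). Apart from fits with a lens left out, the smallest change of Bcl2 was -0.18. Among 18 genes of autophagosome transport and fusion, 3 were elevated. Snap29, a SNARE of the fusion step, gave 0.80 ± 0.16, and Lamp2, a lysosomal membrane protein, gave 0.71 ± 0.14. Epg5, a tether between autophagosomes and lysosomes that is linked to cataract, was detected on both cKO arrays and on neither Control array, and its cKO signal was at least 1.64-fold higher (adjusted p = 0.014). It was not called when the median of the probes detected on all arrays was set equal (0.50, adjusted p = 0.062) or without a detection filter (0.50, adjusted p = 0.070), nor without background correction (0.53), with a background offset of 50 (0.45), with the fold threshold inside the test, or on the authors' rank-invariant values with a floor of 1. The other cataract-linked genes of this list were not called, with -0.12 ± 0.13 for Fyco1 and -0.49 ± 0.16 (adjusted p = 0.093) for Chmp4b, and both turned positive without scaling (0.29 and 0.35) and with equal medians over all probes (0.25 and 0.32). Fyco1 also gave 0.17 without cKO A and 0.02 without Control A. Of 16 tested genes of mitochondrial and endoplasmic reticulum turnover, 0 were called by limma, and 4 of them had an unadjusted p under 0.05, where 31.9% of all genes did. Of the 10 calls, that of Ddit4 remained whichever lens was left out and that of Sesn1 was lost only without Control B. Those of Snap29, Lamp2 and Bcl2 were lost without cKO A, cKO B or Control B, that of Tsc2 without cKO B or Control B and that of Rubcn without cKO A or Control B, while Epg5 passed the filter only with both cKO lenses present. Between 2 and 10 genes of the lists were called in these fits, the fewest without Control B.

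**Figure D4:**
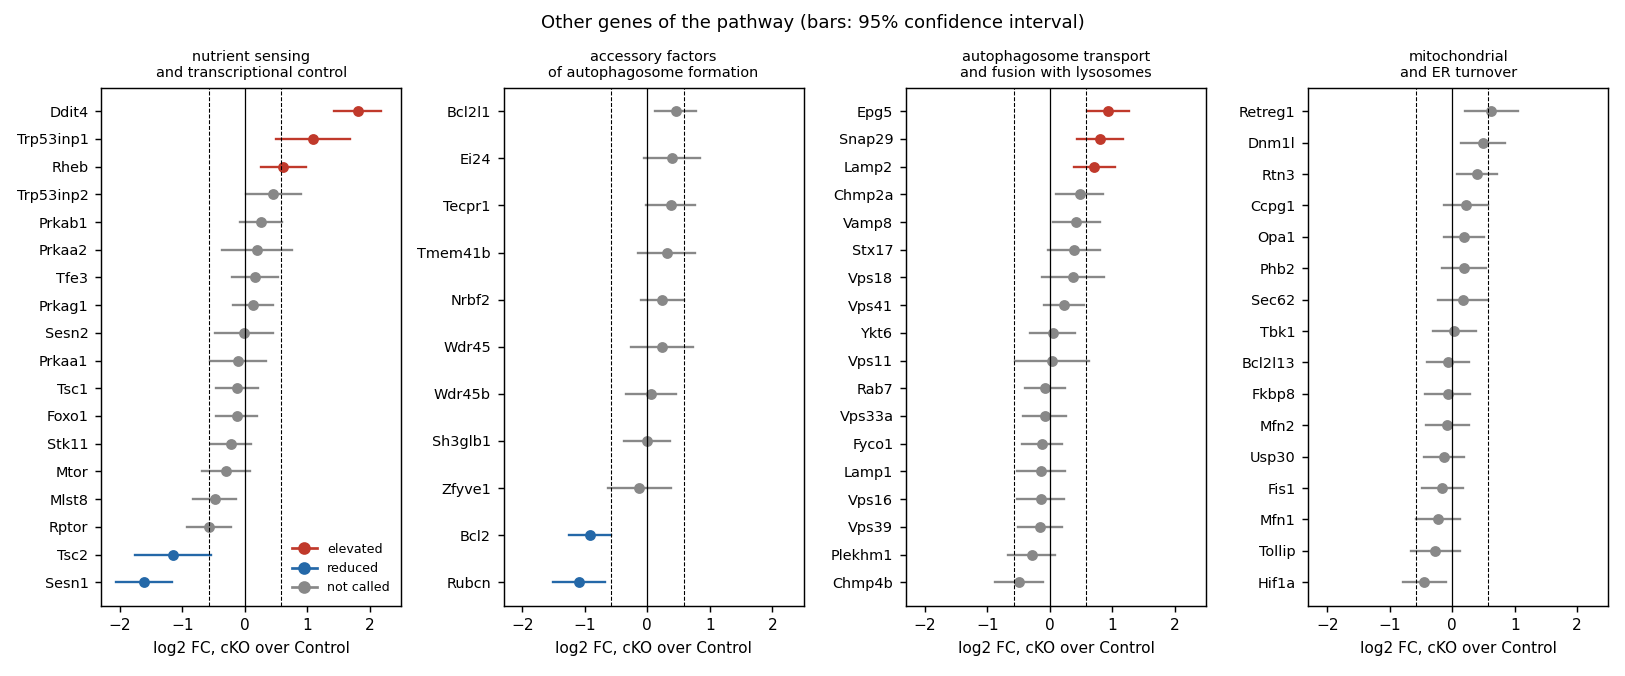
Log2 fold change of Celf1 cKO over Control lenses (horizontal axes) with 95% confidence intervals for the 63 tested genes of the wider pathway, in 4 panels by list and sorted by value. Dashed lines mark the threshold of 0.58, and colours are red for elevated, blue for reduced and grey for not called. Ddit4 at 1.81 and Sesn1 at -1.62 lie at the ends of the nutrient sensing panel, and no gene of mitochondrial and ER turnover was called.

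How the arrays were scaled set the level against which the members were read. Without scaling, the median over all genes was 0.57 and that over the members 0.79, so the members lay 0.22 above all genes, beside 0.19 in the reported fit. Over the 21 alternatives this gap ranged from 0.018 without a detection filter to 0.254 without Control A, and it was 0.085 with each probe on its own, 0.093 with a background offset of 50 and 0.107 without Control B. Without scaling between arrays, 97.7% of calls were elevated, against 51.7% in the reported fit, and 20 members were called. When the median of all probes was set equal on the arrays, 97.3% of calls were elevated, and when that of the probes detected on all arrays was set equal, 24.9% were. Under the last of these, Becn1 (-0.64) and Nbr1 (-0.60) joined the 8 called members as reduced. The 7 elevated members were called and elevated under each of these scalings, whereas Atg9a was not called without scaling (-0.06) or with equal medians over all probes (-0.09).

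**Figure D5:**
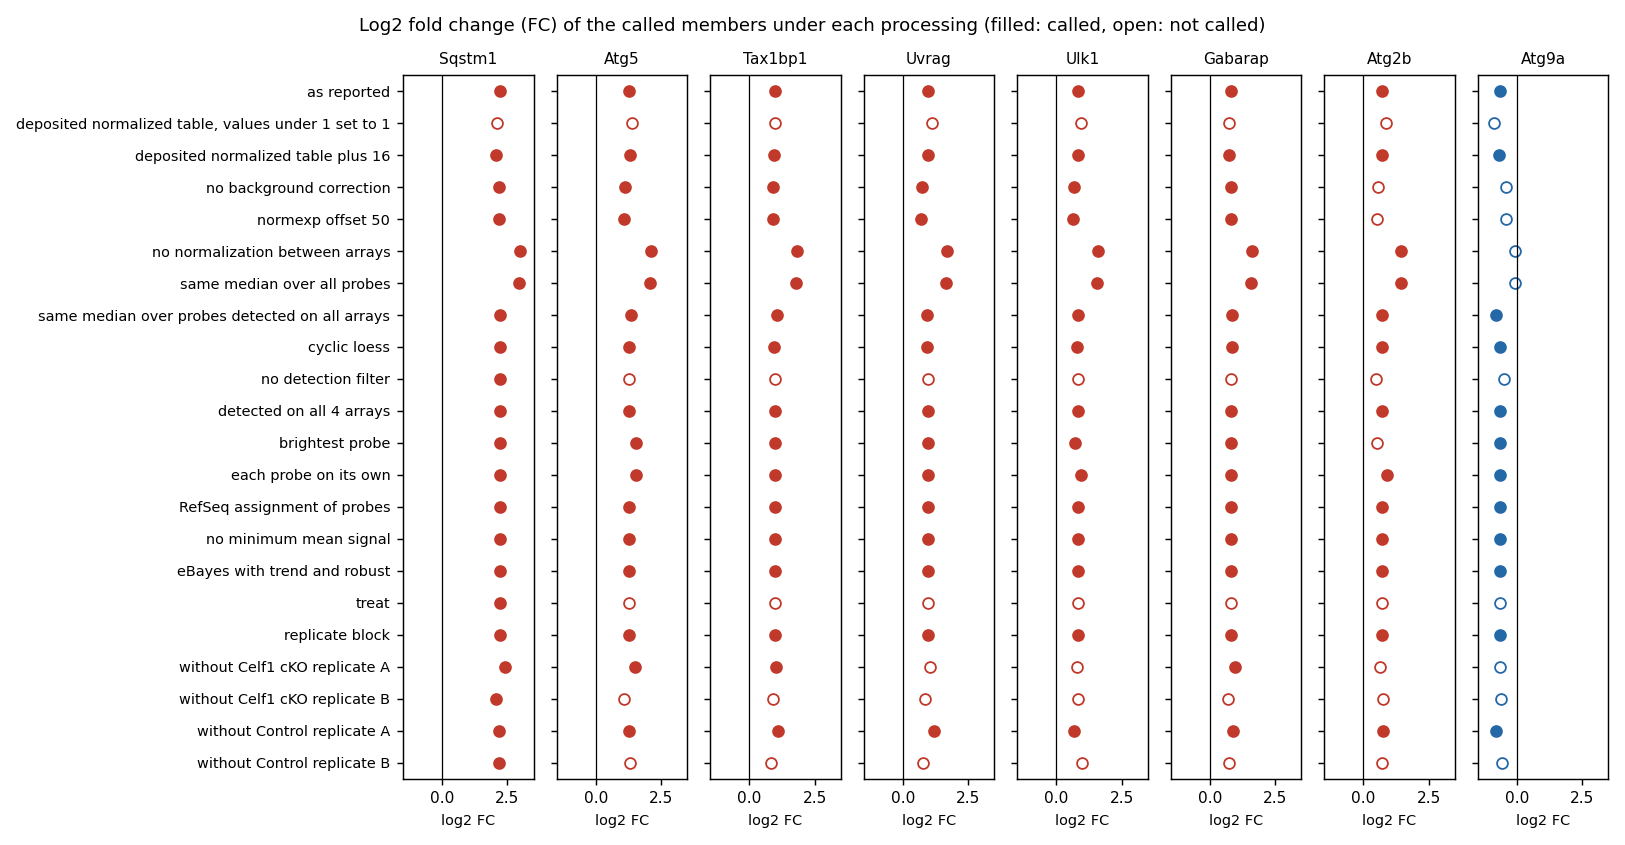
Log2 fold change (FC, horizontal axes) of the 8 called members in the reported fit and under 21 other settings (rows), filled where the gene was called and open where it was not. The direction of each gene is the same in all rows. Sqstm1 stays near 2.20 except without scaling or with equal medians over all probes, and all 8 circles are open in the second row, which uses the rank-invariant values of the authors with a floor of 1. Those of the 7 genes other than Sqstm1 are also open without a detection filter, with the fold threshold inside the test and without cKO B or Control B, and 4 of the 8 are open without cKO A. Atg2b and Atg9a are open without background correction and with an offset of 50 as well, Atg2b also with the brightest probe and Atg9a also without scaling or with equal medians over all probes.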

How the data were processed

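Total RNA of 1 lens per array was hybridised to Illumina MouseWG-6 v2.0 BeadChips (4 arrays, 2 Celf1 cKO and 2 Control). The authors deposited unnormalized signal intensity and intensity scaled by the rank-invariant method, and a per-array detection p-value of every probe, which the authors' scanner software derived from negative control beads. Of 45281 probes, 18 lines with shifted cells were left out. The authors' methods name a model made for counts, which was not applied to intensity.

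The unnormalized intensity was corrected for background by normexp through neqc (offset 16; limma 3.58.1 in R 4.3.3), log2 transformed and quantile normalized. A probe was kept (16262 probes) when its detection p-value was under 0.05 on at least 2 arrays, and the probes of a gene were averaged, as in the study. Genotypes were compared over all 11518 genes by limma's moderated two-sided test (lmFit, eBayes), and p-values were adjusted by the Benjamini-Hochberg method. Signed values are cKO minus Control. Where no array of a group detected a gene, a bound sets the brighter mean against the higher of the gene's own signal and the lowest detected signal. The fit was tested on simulated data. Sequences were read with Python version 3.11.15, and promoters came from RefSeq (GRCm38.p6).

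Members, pathway lists, motifs and alternatives were chosen with earlier results of these data known. Each member is named with its outcome. Values on every array are given for called members, the ATG8 family, tested mitophagy genes and members whose probes differed in call or sign. Of the pathway lists the called genes, Fyco1, Epg5 and Chmp4b are named, and Tecpr1 and Opa1 for their detection. The study's methods count each lens as a biological replicate. Whether the 2 lenses of a group came from separate animals is not given in the sources used here, so p-values measure the spread between these lenses. The number of arrays limits the precision. Whether the replicate letters shared by the genotypes pair the lenses is not given, and the reported fit used no pairing. Over genes, the differences between A and B correlated at r = -0.011 between the genotypes. A single difference per genotype, read after quantile normalization, cannot exclude a shared batch or litter.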

Additional observations from a re-analysis of the deposited data

How the results depend on the processing

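Of the 8 called members, 0 changed direction under any of 21 alternatives. The number of members called, 8 as reported, was 0 on the rank-invariant values of the authors with a floor of 1, 20 without normalization between arrays, 19 with equal medians over all probes, 1 (Sqstm1) without a detection filter and 1 (Sqstm1) with the fold threshold inside the test (treat), and 1 to 8 when each lens was left out in turn. The number of genes called, 1344 as reported, was 7, 5791, 5419, 208 and 83 under the same 5 alternatives, 790 with a background offset of 50, 2694 with equal medians over the probes detected on all arrays and 163 to 1358 without single lenses. Genes of the wider pathway, 10 as reported, numbered 0, 43, 40, 1 and 1 under the first 5, and 2 to 10 without single lenses. On the rank-invariant values plus 16 the same 8 members, 1192 genes in all and 8 of the wider pathway were called. With the floor of 1 the called members kept their direction, for instance with 2.08 for Sqstm1, 1.41 for Atg5, 1.13 for Uvrag, 0.73 for Gabarap and -0.89 for Atg9a. Some members not called moved further, such as Atg2a, from 0.50 as reported to 1.04, or changed sign, such as Ulk2, from 0.02 to -0.06. With 1 lens left in a group, it was assumed to vary like the others. Of the 23 members not called, 15 were called under some alternative and 16 changed sign under some alternative. Without normalization, Wipi1 (0.63), Atg3 (0.71), Map1lc3b (0.68) and Bnip3l (0.78), all below 0 as reported, were called elevated, and with equal medians over all probes so were Wipi1 (0.59), Map1lc3b (0.65) and Bnip3l (0.74). Without scaling the median of all genes was 0.57, and for the other changes the cause was not tested. With the replicate letter as a replicate block, the same 8 members, 11 genes of the wider pathway and 1679 genes in all were called. Whether the letters pair the lenses is not known. The slide could not be fitted as a block, since the files used here name none. Members of low signal, such as Atg4b and Atg4c, were limited by background, and 8 of the 39 members with a probe could not be tested for that reason.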
